A study of Homo sapiens with 3 samples.

Results

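The transcripts of 9 genes were counted in wild-type NCI-H1975 cells: PLAU, PLAT, PLAUR and SERPINE2 of plasminogen activation, and F3, TFPI, TFPI2, THBD and PROCR of the tissue factor pathway. They were chosen by name as members of these systems, with no threshold on counts but with earlier results of these data known. These genes make up 9 of 60880 gene rows in the library and 9 of 19056 rows for protein-coding genes. NCI-H1975, an established line from a human lung adenocarcinoma, was grown in medium with fetal calf serum. The study set wild-type cells against an anlotinib-resistant derivative, and resistant cells with TFAP2A knocked down were also sequenced. Anlotinib blocks several receptor tyrosine kinases, including those that drive blood vessel growth. Values came from 1 RNA-seq library, replicate 2 of the untreated wild-type cells. Resistant cells, knockdown cells and the 2 ATAC-seq samples of wild-type cells were not analysed here, so no difference between cell states is given and no value has a replicate check.

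Plasmin is a broad protease that dissolves fibrin and matrix proteins, and it is made from plasminogen by urokinase (PLAU) or tissue plasminogen activator (PLAT). Urokinase works mostly at the cell surface, held by its receptor (PLAUR), and serpins such as SERPINE2 block it. Tissue factor (F3) is the surface receptor for coagulation factor VII and starts clotting. TFPI inhibits that step, while thrombomodulin (THBD) and the protein C receptor (PROCR) turn thrombin towards activating the anticoagulant protein C. Carcinoma cells are known to carry urokinase, its receptor and tissue factor, whereas thrombomodulin, PROCR and TFPI are best known from the vessel wall.

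The library held 25012733 counts. A gene was called detected at 10 counts or more, and levels are given as CPM, counts per 1000000 counts of the library, with 95% Poisson intervals that cover counting error only. A single count was worth 0.04 CPM. Where a gene was at 0, a level of up to 0.12 CPM, that of 3 counts, was allowed. CPM is not divided by transcript length, because no lengths of the annotation used were at hand, so CPM ranks genes by their reads and not by their transcripts. All 10 listed epithelial and lung adenocarcinoma markers were detected, beside 69.7% of all protein-coding genes. They had 62 to 132533 counts and were led by KRT7 and KRT8. The lowest were NKX2-1, NAPSA and SFTPB, at 2926, 595 and 62 counts.

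Promoter sequence was taken for 7 of the 9 genes from RefSeq (GRCh38.p14), as windows of 250 bases before to 50 after each annotated start. PLAU and SERPINE2 had 2 windows each, which made 9 windows in all. F3 is shown with its inhibitors TFPI and TFPI2 and with the urokinase receptor gene PLAUR, to set a window with many motif matches beside 2 with few and 1 with none. For each, the 250 bases before the start are printed 5′ to 3′ on the gene's strand, which is the minus strand for all 4, at chr1:94541760-94542009 (F3), chr19:43670170-43670419 (PLAUR), chr7:93890754-93891003 (TFPI2) and chr2:187554436-187554685 (TFPI). Capitals mark matches, on either strand, to 4 short motifs: GCCNNNGGC (bound by AP-2 factors such as TFAP2A), TGANTCA for AP-1, TATAAA, the TATA box, and GGGCGG for SP1. A match is a run of letters, not a bound site. GC and CpG contents and match counts are those of the 250 bases before the start.
F3: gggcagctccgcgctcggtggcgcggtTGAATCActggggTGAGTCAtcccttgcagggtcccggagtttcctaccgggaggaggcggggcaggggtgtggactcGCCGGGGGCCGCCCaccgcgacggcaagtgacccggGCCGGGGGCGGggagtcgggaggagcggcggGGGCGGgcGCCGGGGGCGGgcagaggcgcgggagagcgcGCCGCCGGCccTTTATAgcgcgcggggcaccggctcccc
PLAUR: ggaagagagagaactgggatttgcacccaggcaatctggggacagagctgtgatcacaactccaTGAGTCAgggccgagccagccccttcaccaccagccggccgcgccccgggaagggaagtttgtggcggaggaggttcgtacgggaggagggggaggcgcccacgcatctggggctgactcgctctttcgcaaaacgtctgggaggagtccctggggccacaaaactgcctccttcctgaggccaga
TFPI2: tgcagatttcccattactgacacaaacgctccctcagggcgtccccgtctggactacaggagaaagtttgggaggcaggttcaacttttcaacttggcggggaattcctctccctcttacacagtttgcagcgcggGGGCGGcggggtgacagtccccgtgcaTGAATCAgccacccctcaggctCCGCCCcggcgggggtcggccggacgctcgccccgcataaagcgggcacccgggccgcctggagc
TFPI: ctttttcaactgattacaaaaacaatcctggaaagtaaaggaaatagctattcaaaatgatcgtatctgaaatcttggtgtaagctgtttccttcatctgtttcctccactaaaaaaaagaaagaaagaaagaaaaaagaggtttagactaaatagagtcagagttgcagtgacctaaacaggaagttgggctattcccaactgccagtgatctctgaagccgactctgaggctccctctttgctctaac

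The F3 window was the richest of the 9. It held 4 AP-2 matches, 2 AP-1 matches, 4 SP1 matches and a TATA match 28 to 23 bases before the start, which reads TATAAA on the strand opposite to the gene. The AP-1 matches began 223 and 210 bases before the start, and the AP-2 matches began 145, 109, 70 and 39 bases before it. Of the 4 AP-2 matches, 3 shared bases with an SP1 match, so the 2 motifs are not independent there. Over 35116 promoter windows in the RefSeq table, 19.8% held an AP-2 match in their 250 bases, 6.57% an AP-1 match, 10.7% a TATA match and 42.6% an SP1 match. Windows with at least 4 AP-2 matches were 0.114% of the table and windows with at least 2 AP-1 matches were 0.402%, 2 counts taken after the F3 window had been seen. None of these shares was matched for GC content, which was 78.0% in the F3 window against a median of 58.0%.

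The other windows held fewer matches. PLAUR had 1 AP-1 match, which began 186 bases before the start, and none of the other 3 motifs. TFPI2 had 1 AP-1 match, beginning 87 bases before the start, and 2 SP1 matches. TFPI had no match to any of the 4 motifs, and it was the poorest in GC of the 9, at 38.4% against 78.0% for F3 and a median of 58.0% over all windows. Its CpG content was 0.217 of that expected from its base composition, against 0.940 for F3, 0.773 for TFPI2 and a median of 0.558 over the table. PROCR had a TATA match, also on the opposite strand, that began 82 bases before the start and 2 SP1 matches, with a CpG ratio of 0.224. None of the SERPINE2 windows held an AP-2, AP-1 or TATA match, but both held SP1 matches.

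The 2 annotated PLAU starts differed. The first window had 46.8% GC, a CpG ratio of 0.325 and no match to the 4 motifs. The second had 68.8% GC, a CpG ratio of 0.837, 3 SP1 matches within 66 bases of the start and 1 AP-2 match that began 242 bases before it. That AP-2 match is shown in the first 30 bases of the second window (plus strand, chr10:73910882-73910911, GRCh38.p14), with the match in capitals.
PLAU: tggggcagGCCCCCGGCcaggtgcatggga

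AP-2 matches were present in 2 of the 9 windows, those of F3 and the second PLAU start, beside 19.8% of all windows. AP-1 matches were in 3 of the 9 beside 6.57%, TATA matches in 2 beside 10.7% and SP1 matches in 6 beside 42.6%. With 9 windows these counts are a description only. The counts are per gene, so which PLAU or SERPINE2 start was used in these cells cannot be read from them.

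**Figure D1:**
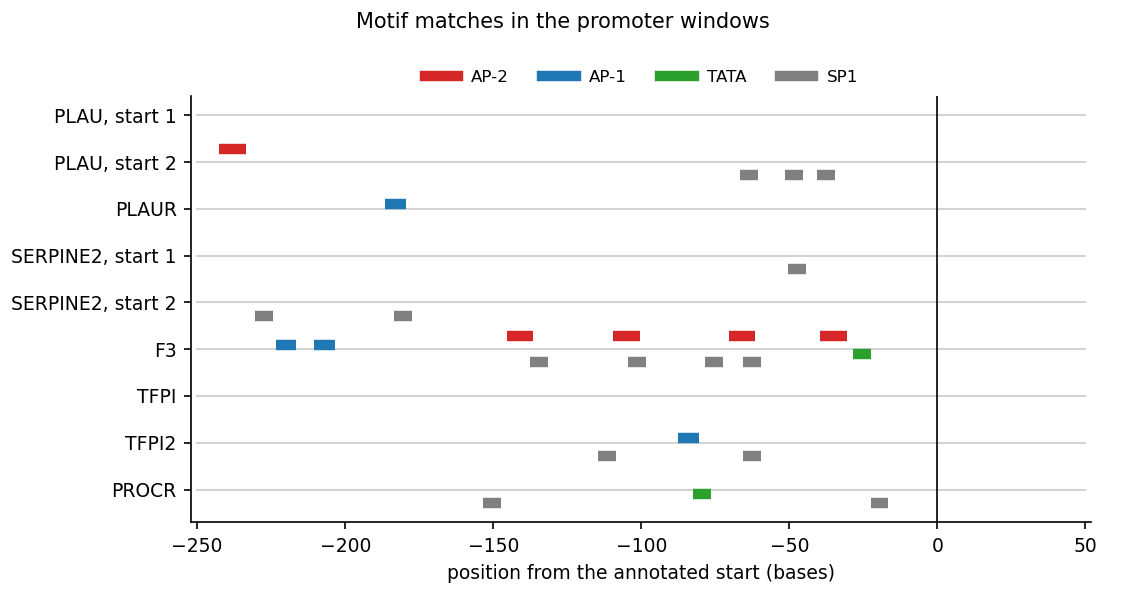
Matches to 4 motifs in the 9 promoter windows, one line per window, with the position in bases from the annotated start on the x axis (0 is the start, negative is before it) and coloured bars for the matched bases. The F3 line carries 4 AP-2 and 2 AP-1 matches, and the TFPI line and the first PLAU line carry none.

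Of the 9 genes, 8 were detected, at 104 to 22814 counts, and SERPINE2 was at 0. Over all 19056 protein-coding genes, 69.7% reached 10 counts, so detection alone sets the 9 little apart from other genes. With 1 count, 50 counts or 1 CPM as the minimum, 8 of the 9 were also detected, beside 78.8%, 62.5% and 65.6% of protein-coding genes. At 1000 counts or more, a level that was not planned, stood 6 of the 9, against 26.6% of protein-coding genes. The median of the 9 was 45.0 CPM, against 9.83 CPM over all protein-coding genes and 26.4 CPM over the detected ones. The 9 were chosen with earlier results of these data known, so these contrasts are a description only. The 9 genes took 30330 counts together, of which PLAU alone held 75.2%.

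PLAU, the urokinase gene (identifier ENSG00000122861.15_2), had 22814 counts, or 912 CPM (95% interval 900 to 924). That count was above 99.4% of detected protein-coding genes, and 81 protein-coding genes had more. An overlapping long non-coding gene, C10orf55, had 506 counts, or 2.22% of the PLAU count. Reads from the shared stretch could have been dropped or given to either gene, and no source used here gives the strand setting of the counting. PLAT, the tissue-type activator that acts mainly on fibrin (ENSG00000104368.17_4), had 1126 counts, or 45.0 CPM (42.4 to 47.7). This was above 65.0% of detected protein-coding genes. PLAU thus had 20.3 times the reads of PLAT (19.1 to 21.5).

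PLAUR, the lipid-anchored urokinase receptor (ENSG00000011422.11_4), had 2064 counts, or 82.5 CPM (79.0 to 86.2), the second highest of the 9. It was above 80.2% of detected protein-coding genes. The reads of the ligand PLAU were 11.1 times (10.6 to 11.6) those of its receptor.

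SERPINE2, which encodes protease nexin-1, an inhibitor of thrombin, urokinase and plasmin (ENSG00000135919.12_4), was at 0 counts. That allows up to 0.12 CPM. It shared a count of 0 with 21.2% of protein-coding genes. Measured against the 3-count limit, PLAU had at least 7605-fold more reads and PLAT at least 375-fold more.

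**Figure D2:**
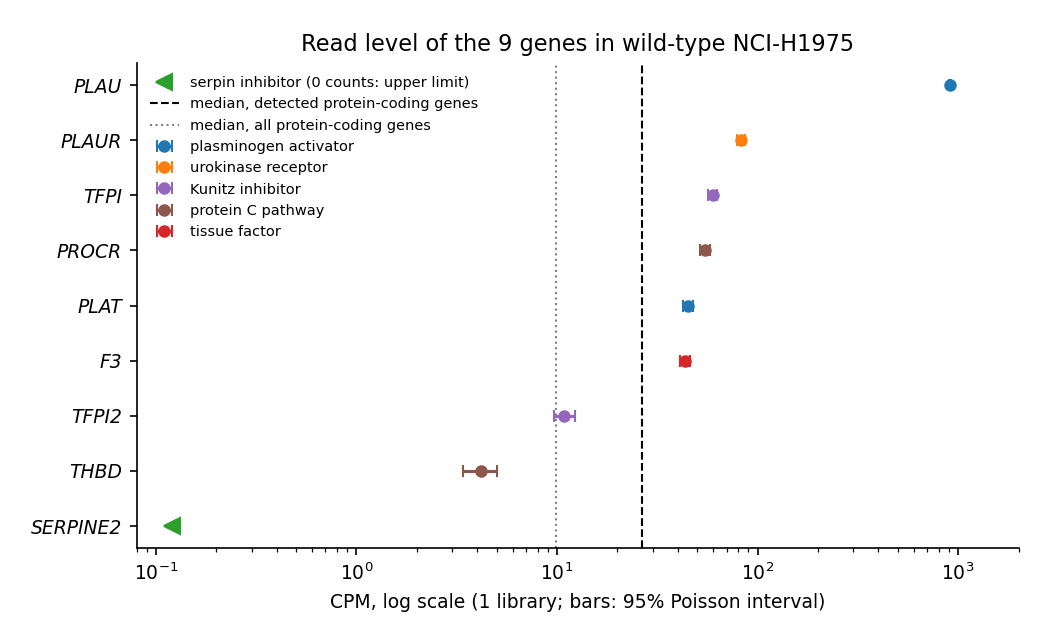
CPM of the 9 genes in the 1 wild-type library, on a log axis, with 95% Poisson intervals as bars and colours for the role of each gene. PLAU stands at 912 CPM, 5 genes lie between 43.4 and 82.5 CPM, TFPI2 and THBD lie lower, and the SERPINE2 arrow is the 0.12 CPM limit of a count of 0.

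F3, the tissue factor gene (ENSG00000117525.13_2), had 1085 counts, or 43.4 CPM (40.8 to 46.0). Of detected protein-coding genes, 64.0% had fewer. Its read number did not differ from that of PLAT beyond counting error, with a ratio of PLAT to F3 of 1.04 (0.954 to 1.13). TFPI, the Kunitz-type inhibitor of factor Xa and of the tissue factor complex (ENSG00000003436.15_4), had more reads than F3: 1495 counts, or 59.8 CPM (56.8 to 62.9). The ratio of F3 to TFPI reads was 0.726 (0.671 to 0.785). TFPI makes splice forms that end differently, one of them anchored to the membrane, and a count per gene does not separate them.

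TFPI2, a matrix-bound Kunitz inhibitor that acts on plasmin and trypsin more than on tissue factor (ENSG00000105825.12_3), was much lower. It had 272 counts, or 10.9 CPM (9.62 to 12.2), and 29.8% of detected protein-coding genes had fewer. TFPI had 5.50 times its reads (4.83 to 6.28), and F3 had 3.99 times (3.49 to 4.57).

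The 2 receptors of the protein C pathway were far apart. PROCR, which presents protein C to the thrombin complex (ENSG00000101000.5_4), had 1370 counts, or 54.8 CPM (51.9 to 57.8), and 70.2% of detected protein-coding genes had fewer. THBD, the thrombin receptor of that complex (ENSG00000178726.6_2), had 104 counts, or 4.16 CPM (3.40 to 5.04), and 16.7% had fewer. PROCR had 13.2 times the reads of THBD (10.8 to 16.2). In a bulk library, low expression in all cells and expression in few cells cannot be told apart.

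By reads the order was PLAU, PLAUR, TFPI, PROCR, PLAT, F3, TFPI2, THBD and SERPINE2. Neighbours in this order differed beyond counting error except PLAT and F3, and TFPI and PROCR were close, with a ratio of 1.09 (1.01 to 1.18). These intervals hold no spread between cultures, which 1 library cannot give, and they treat PCR copies as separate reads.

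**Figure D3:**
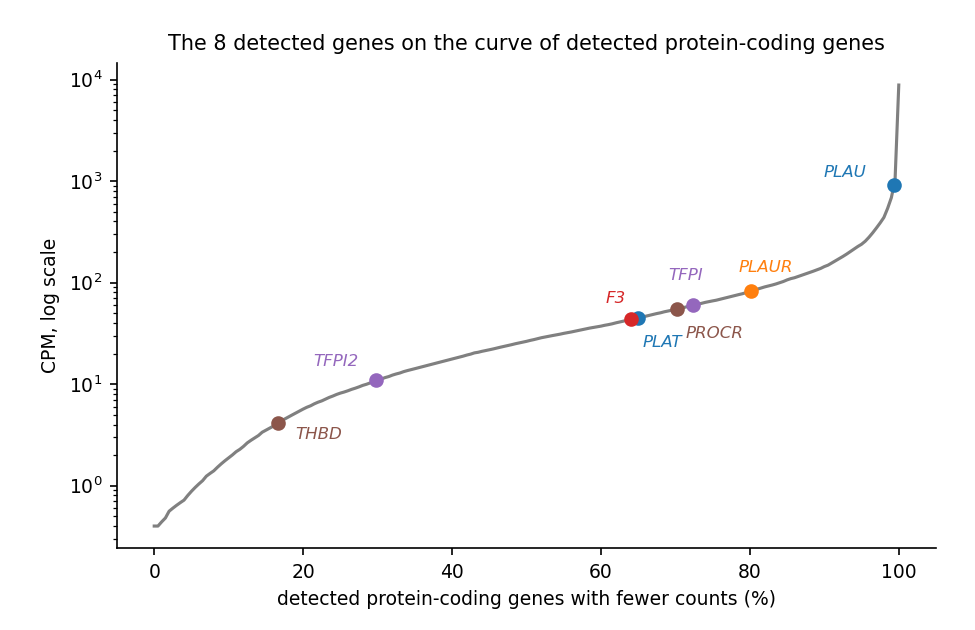
CPM (log axis) against the share of detected protein-coding genes with fewer counts, drawn as a grey line over all detected protein-coding genes with the 8 detected genes as points coloured by role. PLAU sits on the steep end of the line at 99.4%, PLAUR, TFPI, PROCR, PLAT and F3 lie between 64.0% and 80.2%, and TFPI2 and THBD lie at 29.8% and 16.7%.

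The other genes of each step were read from 8 lists. Of 79 listed genes that are not among the 9, 48 were detected, or 60.8% against 69.7% of all protein-coding genes, and 18 were at 0. The counts of detected genes in each list below are to be read against that 69.7%, and the medians against 9.83 CPM. Among 11 plasminogen activators, their substrate and the proteases that activate pro-urokinase, 8 were detected, with a median of 18.8 CPM. PLAU led them, followed by CTSB (cathepsin B) at 16713 counts, ST14 (the membrane protease matriptase) at 4987 and CTSL (cathepsin L) at 3498, all of which can activate pro-urokinase in vitro. PLG, the plasminogen gene itself, was at 0, as were KLK4 and KLKB1 (plasma kallikrein).

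Of 11 receptors and cofactors of plasminogen activation 10 were detected, with a median of 82.5 CPM, which is the level of PLAUR itself. ENO1, an abundant glycolytic enzyme that also binds plasminogen at the cell surface, had 83934 counts. ANXA2 and S100A10, which form a surface complex that binds plasminogen and PLAT, had 26979 and 9253 counts. LRP1, the endocytic receptor that clears urokinase bound to its inhibitor, had 11568 counts. FPR3, a formyl peptide receptor, was at 0. ENO1 and ANXA2 have near-identical pseudogene copies, so their counts are uncertain.

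Of 9 inhibitors of plasminogen activators and plasmin, a list that is not complete, 4 were detected, with a median of 0.280 CPM over the 9. SERPINB6, an intracellular serpin, had 3065 counts, SERPINA5, the protein C inhibitor, had 431, and SERPINB8 had 209. SERPINF2, the plasma inhibitor of plasmin, had 37. CPB2 and A2M, a carboxypeptidase and a broad protease trap of plasma, were at 0 together with SERPINE2.

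F3 was the member with the second highest count among 16 genes of tissue factor, the coagulation factors and their processing, of which 6 were detected. GGCX, the vitamin K-dependent carboxylase, had 1330 counts. F8 had 206 counts and VKORC1, which recycles vitamin K, had 189. F7, the ligand of tissue factor, and its substrates F9 and F10 were at 0, as were F11 and F13B. The list had a median of 0.12 CPM, below the 9.83 CPM of all protein-coding genes.

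Among 12 anticoagulant genes, 8 reached 10 counts, and the median over the 12 was 7.52 CPM. ANXA5, a phospholipid-binding annexin, had 5457 counts and PROS1, the protein S gene, had 1930, ahead of TFPI and PROCR. The count of PROS1 is uncertain, as it has a near-identical pseudogene. PROC, the protein C gene, had 6 counts, and the serpin gene SERPINC1 (antithrombin) and SERPINA10 were at 0. All 4 protease-activated receptors, through which cells sense thrombin, factor Xa and related proteases, were detected. F2RL1 had 2463 counts and F2R, the main thrombin receptor, had 1628, against 64 for F2RL2 and 40 for F2RL3.

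TFPI and TFPI2 belong to a family with Kunitz inhibitor domains, of which 8 of 12 listed genes were detected. Their median over the 12 was 31.0 CPM. APLP2 and APP led with 22208 and 19051 counts, but only some of their splice forms carry the domain. SPINT2 and SPINT1, surface inhibitors of matriptase and hepsin, had 7536 and 4121 counts, both above TFPI. SPINT3 and WFIKKN2 were at 0. PLAUR belongs to the LY6/uPAR family, of which 11 of 16 listed genes were detected. The median over the 16 was 5.56 CPM. LY6E and CD59, a complement inhibitor, had 6496 and 3289 counts, PLAUR was next, and LYPD1 had 802. LYPD2, LYPD4 and SLURP1 were at 0.

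**Figure D4:**
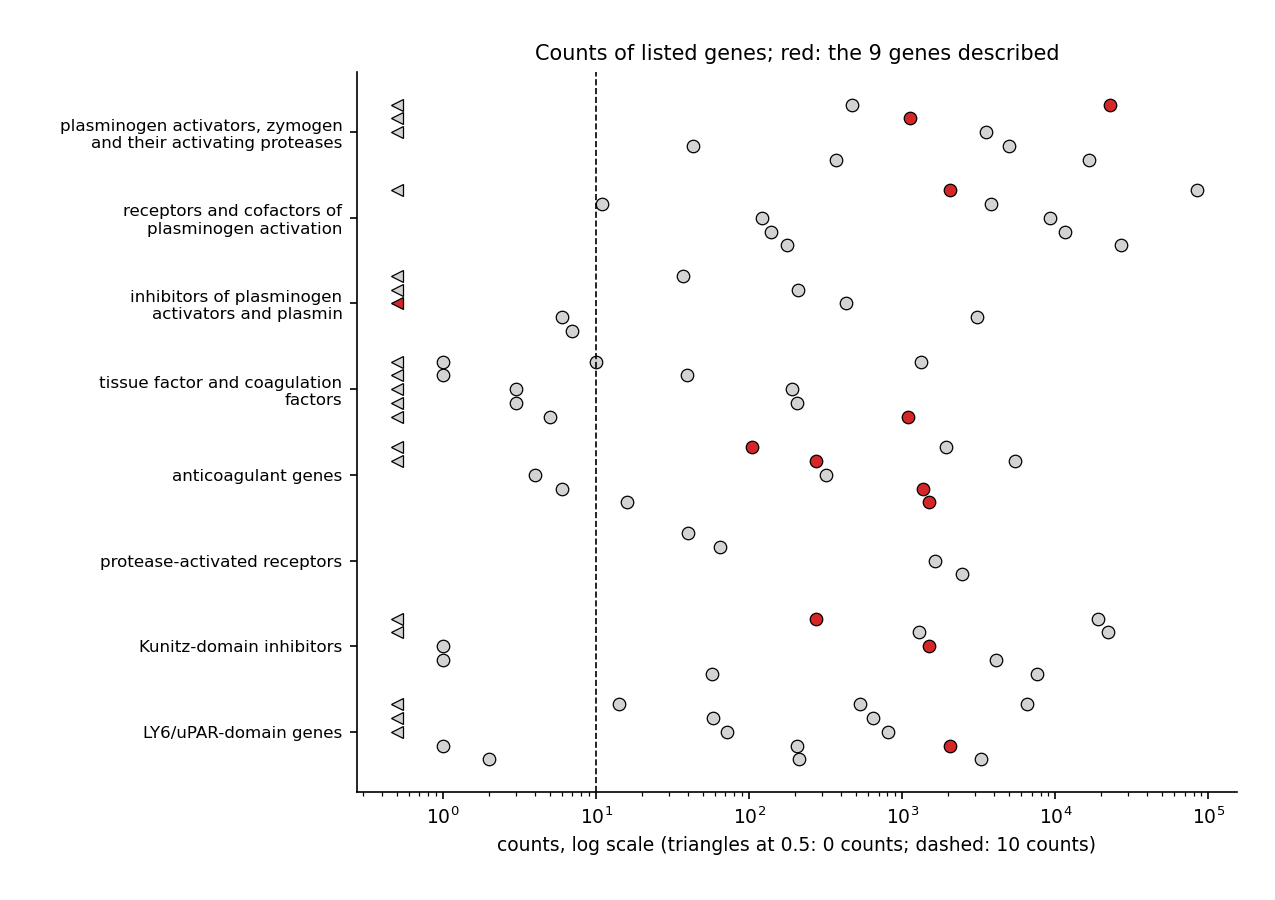
Counts of the genes in the 8 lists, on a log axis, one row per list, with the 9 genes described in red, the others in grey, triangles for a count of 0 and a dashed line at 10 counts; the vertical offset within a row only separates points. PLAU is the right-most point of the first row, and SERPINE2 is among 3 genes at 0 in the row of inhibitors.

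The genes beside the 9 on their chromosomes ranged from 0 to 9018 counts. PLAU lies between CAMK2G, with 2293 counts, and VCL, with 9018. The neighbours of THBD, SSTR4 and CD93, were both at 0. TFPI is flanked by CALCRL, with 5 counts, and GULP1, with 1049, and the overlapping CALCRL-AS1 had 13 counts, or 0.870% of TFPI. RN7SL368P, a pseudogene within PLAUR, had 5 counts, and RNA5SP483, within PROCR, was at 0. MMP24-AS1-EDEM2 overlaps PROCR, LOC124904724 overlaps PLAUR and LOC124907990 overlaps SERPINE2, each on the opposite strand. No count was matched to their symbols, so any reads shared with them were not measured. SERPINE2 lies between MRPL44, with 561 counts, and FAM124B, at 0. Neighbours are those of the RefSeq table (GRCh38.p14).

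Because THBD, PROCR, TFPI and PLAT are also genes of vessel lining cells, markers of other cell types were read beside them. The counts of detected markers below are to be read against the 69.7% of all protein-coding genes that reached 10 counts. Among the 10 endothelial markers that had a row, 6 reached 10 counts, and the list summed to 20.3 CPM. CDH5 had 340 counts and EGFL7 had 58, VWF had 10, and TIE1, CLDN5 and EMCN were at 0. The list held 509 counts in all, against 1495 for TFPI, 1370 for PROCR, 1126 for PLAT and 104 for THBD, which was below CDH5 alone. Of 11 leukocyte and platelet markers 2 were detected, CD14 with 600 counts and ITGA2B with 249, and CD3D, MS4A1, PF4, PPBP and GP9 were at 0. Of 9 fibroblast markers 3 were detected, led by COL1A1 with 7847 counts and COL1A2 with 4104, while DCN, LUM, PDGFRA and THY1 were at 0. The library came from an established cell line, and these marker counts describe its bulk reads. Any part of other cell types in the levels of the 9 genes was not tested.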

How the data were processed

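One RNA-seq library had values. Per the labels' protocols, Trizol was used for RNA and an NEBNext directional kit for the library. The deposited file holds raw read counts per Ensembl gene, which the authors did not normalise. The build hg19 and the read tools STAR and featureCounts are named in the submitters' processing notes, beside Bowtie2, MACS2 and deepTools, without roles. No source used here gives the strand setting, annotation release or handling of shared reads.

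Identifiers were matched without version to a symbol table: 56414 of 60880 rows matched, with 99.8% of counts. RefSeq (GRCh38.p14) gave gene type, neighbours and promoter sequence; no hg19 position was used. CPM, exact (Garwood) Poisson intervals and conditional exact (Clopper-Pearson) intervals of read ratios, all at 95%, were computed. With 1 library there is no replicate spread, and no test was possible. A count of 0 is given as a limit of 3 counts. Intervals and limits cover counting error only. Without molecular identifiers PCR copies count as separate reads, so the intervals may be too narrow even for that error.

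The genes and lists were chosen with earlier results of these data known. The naming rule took the 9 genes, overlapping genes, and in each list the 4 highest counts and every gene at 0. Of each marker list it took the top 2 and those at 0. VWF, PROC, F2RL2, F2RL3, NKX2-1, NAPSA, SFTPB and the flanking genes were named after their counts were seen. One gene of the inhibitor list is not reported here and was left out of that list's values. Genes alike in pattern over samples were not sought, since 1 library gives no pattern. The planned levels per length and protein comparisons were not made, as no transcript lengths or proteins were used here. Code was tested on simulated data. Versions were SciPy 1.17.1, NumPy 2.4.6 and pandas 2.3.3 under Python 3.11.15, with figures from Matplotlib 3.10.9.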

Additional observations from a re-analysis of the deposited data

How the results depend on the processing

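With a minimum of 1 count, 50 counts or 1 CPM in place of 10 counts, the number of the 9 genes detected stayed at 8, and the number detected in each of the 8 lists stayed within 1.5 times, except that the coagulation list rose from 6 to 11 genes at 1 count. The summed level of the 9 genes, 1213 CPM, became 1281 CPM with mitochondrial genes left out of the total, 1305 CPM without the 10 genes with the highest counts and 1319 CPM over protein-coding genes only; every CPM rises by the same factor (1.06, 1.08 and 1.09), which leaves ratios and order as they are. Among all protein-coding genes with a row, in place of the detected ones, the share with fewer counts was 99.6% for PLAU, 86.2% for PLAUR, 80.8% for TFPI, 79.3% for PROCR, 75.6% for PLAT, 74.9% for F3, 51.1% for TFPI2 and 41.9% for THBD, because that set adds genes of low count. The number of promoter windows with each motif was equal in the 300 bases and in the 250 before the start. Levels per length, planned as an alternative, were not run. The depth limits SERPINE2, for which a count of 0 was taken to allow a level of up to 0.12 CPM. No paired analysis was possible because values came from a single library.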
